A study of Mus musculus with 2 samples.

Results

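The genes described here make, store and break down serotonin and the catecholamines, together with the prolactin receptor, in islets of RbΔK7 knock-in mice and of control mice. They were taken by name: every gene probe of the array that carries the symbol Tph1, Tph2, Ddc, Th, Slc18a1, Slc18a2, Maoa, Maob or Prlr on both arrays, which gave 12 probes of 9 genes, out of 34844 gene names on the array. RbΔK7 is a retinoblastoma protein that resists phosphorylation, and the mutant islets came from mice in which it was knocked in. Control islets are labelled only as control. For both genotypes the strain, age, sex and number of mice per sample are not given in the sources used here. All islets were released with collagenase, picked under a microscope and frozen at once. Each of 2 arrays carried 1 mutant sample in Cy5 and 1 control sample in Cy3, from 15 ng of total RNA each, and the 2 samples of each genotype were harvested independently, as biological replicates.

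Beta cells and serotonin-producing neurons share much of this machinery. Tryptophan hydroxylase, encoded by Tph1 in peripheral tissues and by Tph2 in the brain, starts serotonin synthesis from tryptophan. Tyrosine hydroxylase, encoded by Th, starts dopamine synthesis from tyrosine, and the decarboxylase encoded by Ddc completes both routes. Slc18a1 and Slc18a2 encode the vesicular transporters VMAT1 and VMAT2, which load monoamines into granules, and Maoa and Maob encode the mitochondrial oxidases that degrade them. In mouse pregnancy, lactogens act on beta cells through the prolactin receptor and induce Tph1 and Tph2, and the serotonin made there supports beta cell expansion.

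The results turn most on the prolactin receptor, which was read by a pair of separate oligonucleotides, and on Ddc, which was also read by 2. For each gene, 1 probe known to lie in coding sequence is shown, since it reads a stretch of the message far from the other probe of its gene. Each is 60 bases, and both are written 5′ to 3′ in the sense of the transcript, as the array file gives them.
Prlr probe: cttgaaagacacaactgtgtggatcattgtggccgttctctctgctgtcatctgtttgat
Ddc probe: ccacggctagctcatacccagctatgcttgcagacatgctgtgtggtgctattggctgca
The Prlr probe lies at chr15:10255629-10255688 on the plus strand (mm9) and starts at base 1425 of the transcript, in the part that encodes the membrane-spanning helix. The other Prlr probe starts at base 2618 and lies 3437 bases further along the chromosome, at chr15:10259066-10259125. The file lists 3 Ensembl transcripts for each. The Ddc probe lies at chr11:11776262-11776321 on the minus strand and starts at base 320, while the other Ddc probe starts at base 1956, at chr11:11714106-11714165. The 2 probes of Slc18a2 share 13 positions and so are not separate readings. Every other gene had 1 probe, and each of the 12 probes was spotted once.

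Both arrays lay on 1 slide and no dyes were exchanged, so genotype and dye cannot be told apart for any single probe. In the mutant channel 41.0% and 48.2% of gene spots were well above background (replicates 1 and 2), against 37.0% and 38.1% in the control channel. A fit to 2 arrays leaves 1 residual degree of freedom, which bounds how precisely any probe is known. The message of Rb1, which the knock-in alters, had ratios of 0.48 and 0.14 (log2, limma adjusted p = 0.517). Whether its probe tells the mutant message from the normal one was not examined. All 10 beta cell markers were measured, with summed log2 levels of 18.7 and 19.4 in mutant islets and 19.0 and 18.5 in control islets. Acinar and Reg genes set one pair apart: their summed log2 levels were 21.4 and 17.4 in mutant islets of replicates 1 and 2, against 21.0 and 22.3 in control islets. So all values are given for each array. In whole islets, fewer cells of a type and less RNA per cell cannot be told apart.

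No probe of the 9 genes passed the test. Prlr was higher in mutant islets by both probes and Th was lower, on both arrays, while Ddc had opposite signs on the 2 arrays. The message of Tph1 was not well above background in any sample. Of the 12 probes, 8 (from 6 genes) were bright enough to test, with at least 1 channel well above background on each array, and 4 (Tph1, Tph2 and both of Slc18a2) were not. At an adjusted p under 0.05 limma called 0 of these 8, against 0.368% of all 22263 tested probes (0.355% higher and 0.0135% lower in mutant islets). It also called 0 of them with a trended and robust prior, which called 2.52% of all tested probes, with no filter (0.638%) and without acinar and Reg probes (0.833%), and 0 of the 7 left when both channels had to be well above background (0.407%). At an unadjusted p under 0.05 the number was 2, Th and the Prlr probe at base 1425, against 11.3% of all tested probes. Both mutant samples lay above both control samples for 4 of the 8 probes and below them for 2, where 21.9% and 15.6% of all tested probes did so. The 4 include both probes of Prlr, and Maoa with a gap of only 0.002. The 2 include Maob, with a gap of only 0.003. The 8 probes had median log2 ratios of -0.07 and 0.25 (replicates 1 and 2), against 0.02 and 0.02 for all tested probes. Probes that were too dim are missing from these counts, and Maoa passed through its mutant channel alone.

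**Figure D1:**
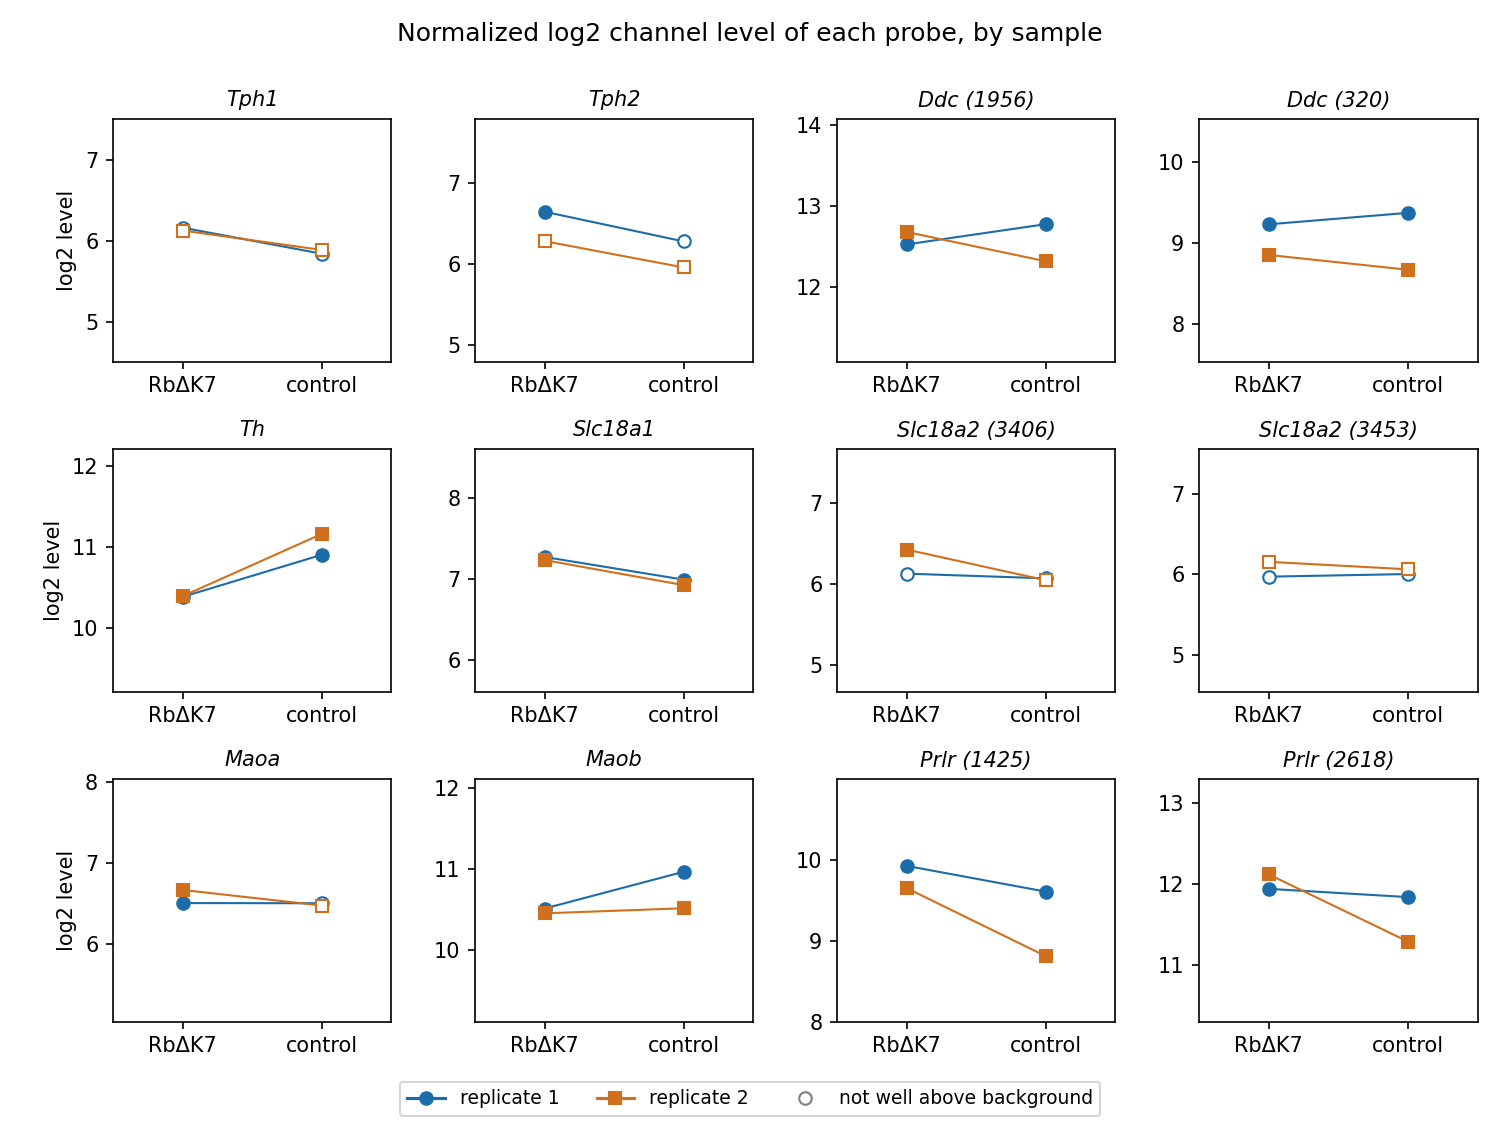
Normalized log2 level of each of the 12 probes in the 4 samples, with mutant (RbΔK7) islets left of control islets, lines joining the samples of 1 array, and open symbols for spots not well above background. Numbers in brackets are the base of the transcript at which a probe starts. Each panel spans the same range of log2 units around its own mean, and levels are not comparable between panels. Th sits lower in both mutant samples, near 10.38, and Prlr is lowest in the control sample of replicate 2.

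The prolactin receptor, a cytokine receptor that signals through JAK2 and STAT5, was higher in mutant islets on both arrays. By the probe at base 1425 the normalized log2 level was 9.92 and 9.65 in mutant islets, against 9.61 and 8.81 in control islets. The groups did not overlap, but the lower mutant level and the higher control level were only 0.04 apart, and the control samples differed from each other by 0.80. The log2 ratios were 0.32 and 0.84, or 1.25-fold and 1.79-fold, with a mean of 0.58 ± 0.37 (SD, n = 2; limma interval (95%) from 0.16 to 1.00; limma adjusted p = 0.298). By the probe at base 2618 the levels were 11.94 and 12.12 in mutant islets, against 11.83 and 11.29 in control islets. The ratios here were 0.10 and 0.83, with a mean of 0.47 ± 0.51 (SD, n = 2; limma interval from -0.02 to 0.96; limma adjusted p = 0.462). The 2 probes thus gave nearly 1 value in replicate 2, 0.01 apart, and differed by 0.22 in replicate 1. Feature Extraction's deposited p-value, which covers technical error within 1 array, was 6.91e-05 and 8.20e-05 for the probes at bases 1425 and 2618 in replicate 2, and 0.133 and 0.650 in replicate 1. With median centring on the tested probes in place of loess, the probe at base 1425 had a mean of 0.79 and passed (limma adjusted p = 0.0487), in a setting that called 3.54% of all tested probes. The probe at base 2618 had a mean of 0.77 there and did not pass (limma adjusted p = 0.0640). With centring on all gene probes, which called 31.8% of all tested probes, both Prlr probes and both Ddc probes passed, with means of 1.42 and 1.40 for Prlr and 1.01 and 0.83 for Ddc.

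The ratios of beta cell markers and of acinar and Reg genes differed between the pairs, and they stand beside those of Prlr. The median of the 10 beta cell markers was -0.58 and 0.25 (log2 ratio, replicates 1 and 2), and 0 of 10 passed. Set against this median, the Prlr probe at base 1425 was higher by 0.90 and 0.59 in replicates 1 and 2, and the probe at base 2618 by 0.68 and 0.58. Slc18a1 was higher than this median by 0.86 and 0.06, and Maoa differed from it by 0.58 and -0.06, so in replicate 1 Prlr did not stand apart. The markers also varied among themselves: in replicate 2 Ins1 (1.25) and Iapp (0.98) had larger ratios than either Prlr probe, and Ins2 had 0.71. Of 36 acinar and Reg genes 0 passed, and their medians were 0.40 and -5.15. Duct markers, with medians of 0.66 and 1.20 over 7 genes, were higher on both arrays in 6 of them, where 32.3% of all tested probes were, and 2 of the 7 rose. The part of these cells in the Prlr values was not tested.

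Th, the gene of the catecholamine branch, had the largest absolute mean ratio among the 8 tested probes as normalized here, while with median centring on the tested probes both Prlr probes (0.79 and 0.77) exceeded it (-0.38). Its probe (chr7:150078703-150078762, minus strand, mm9) had log2 levels of 10.38 and 10.39 in mutant islets, against 10.90 and 11.16 in control islets. The mutant samples lay 0.01 apart, and the gap to the lower control sample was 0.51. The ratios were -0.52 and -0.77, so the message was 1.56-fold lower on average (mean -0.64 ± 0.18, SD, n = 2; limma interval from -0.99 to -0.30). Th did not pass (limma adjusted p = 0.177; unadjusted p = 0.00401, rank 505 of 22263 probes). Its deposited p-values from Feature Extraction were 0.00535 and 5.79e-05. The mean was negative in all planned settings, from -0.74 to -0.38, and it was 0.25 when arrays were centred on all gene probes, a setting added after the data were seen in which the medians of all tested probes were themselves 0.40 and 0.86.

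Th has Ins2 as its neighbour in the gene order of GRCm38.p6, and the 2 did not move together: Ins2 had ratios of -0.57 and 0.71. Against the beta cell median, the Th ratio differed by 0.06 in replicate 1 and by -1.02 in replicate 2. Sympathetic nerves also make Th message. Of 6 nerve markers, the noradrenaline genes Dbh and Slc6a2 were not well above background in any sample, and the other 4 were higher in mutant islets on both arrays (medians 0.94 and 0.46), with 0 past the test. Among these, the neuropeptide Y gene Npy had ratios of 0.99 and 1.14, and Uchl1 1.00 and 0.33. Their summed log2 levels were 10.2 and 10.4 in mutant islets, against 9.24 and 9.67 in control islets. Nerve markers and Th thus had opposite signs, and the part of nerves in the Th value was not tested.

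Over the 4 samples, the genes whose centred log2 levels lay nearest to those of Th were 4930481B07Rik, Slc37a4 and 4932431P20Rik, out of 12934 genes searched. Their Euclidean distances were 0.104, 0.133 and 0.134 log2 units. Slc37a4 encodes the glucose-6-phosphate transporter of the endoplasmic reticulum, with levels of 10.46 and 10.53 in mutant islets and 10.97 and 11.11 in control islets. With 4 samples such likeness is a description only.

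**Figure D2:**
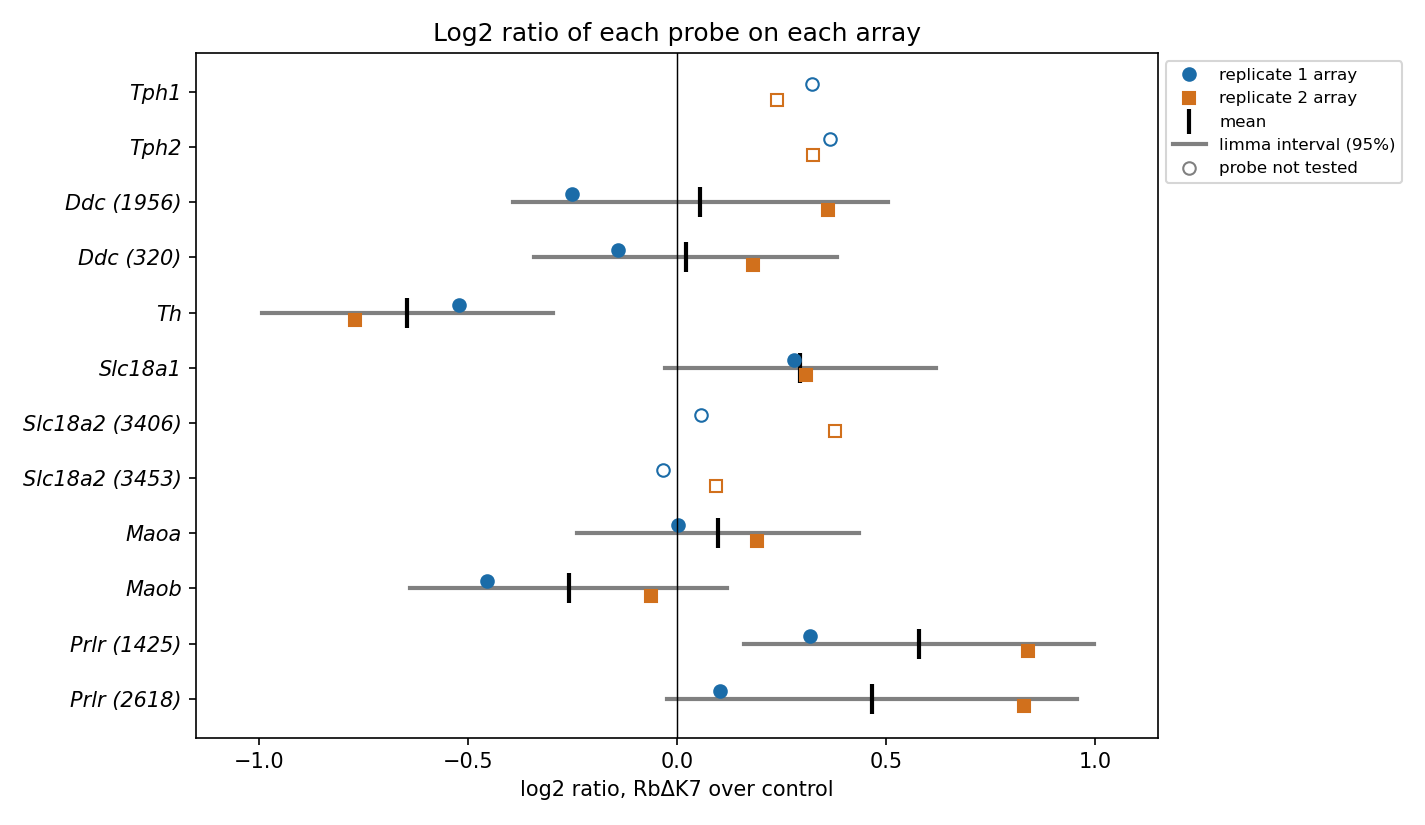
Log2 ratio of mutant (RbΔK7) over control for each of the 12 probes on the replicate 1 array (circles) and the replicate 2 array (squares), with the mean and limma's interval (95%) for the 8 tested probes and open symbols for the 4 that were too dim to test. The interval stays off 0 for Th (-0.99 to -0.30) and for the Prlr probe at base 1425 (0.16 to 1.00), and neither probe passed after adjustment over all probes.

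Ddc, the decarboxylase shared by both routes, showed no common direction. By the probe at base 1956 the log2 levels were 12.53 and 12.68 in mutant islets, against 12.78 and 12.32 in control islets. The groups overlapped, and the ratios were -0.25 and 0.36 (mean 0.06 ± 0.43, SD, n = 2; limma interval from -0.39 to 0.50; limma adjusted p = 0.948). By the probe at base 320 the levels were 9.23 and 8.85 in mutant islets, against 9.37 and 8.67 in control islets. Here the ratios were -0.14 and 0.18 (mean 0.02 ± 0.23, SD, n = 2; limma interval from -0.34 to 0.38; limma adjusted p = 0.978). The 2 Ddc probes, 62156 bases apart, had the same sign on each array. The beta cell median also changed sign between the arrays, and Ddc lay above it by 0.33 and 0.44 in replicate 1 and differed from it by 0.11 and -0.07 in replicate 2 (probes at bases 1956 and 320).

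The tryptophan hydroxylase genes were at or near the limit of detection. The Tph1 spot (chr7:53902553-53902612, mm9) had raw signals of 65.7 and 68.7 in the mutant channel, against 24.7 and 31.3 in the control channel. The local backgrounds were 55 and 57.5 for the mutant channel, against 32 and 30 for the control channel, so no fold is given. The Tph2 spot (chr10:114516684-114516743, mm9) had raw signals of 95 and 80.2 over backgrounds of 56 and 57 in the mutant channel, against 31.7 and 30.6 over 29 and 28 in the control channel. It was well above background in the mutant sample of replicate 1 and in no other sample. Its normalized log2 levels were 6.64 and 6.28 in mutant islets, against 6.28 and 5.96 in control islets. The log2 ratios of Tph2 were 0.37 and 0.32, against 2.57 and 1.06 in the authors' deposited table, so its size differed between the processings. The deposited p-values were 0.000508 in replicate 1 and 0.363 in replicate 2. No fold is given for Tph2, and it was not tested.

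Of the vesicular transporters, VMAT1 was measured and VMAT2 was near background. Slc18a1 (chr8:71561627-71561686, mm9) had log2 levels of 7.27 and 7.23 in mutant islets, against 6.99 and 6.92 in control islets. All 4 spots were well above background and the groups did not overlap, with a gap of 0.24. The ratios were 0.28 and 0.31, or 1.21-fold and 1.24-fold (mean 0.30 ± 0.02, SD, n = 2; limma interval from -0.03 to 0.62; limma adjusted p = 0.482). These were the 2 closest ratios among the 8 tested probes, and the mean was above 0 in every setting tried, from 0.11 to 0.74. The raw signals of the Slc18a2 probe at base 3406 were 65 and 96 in the mutant channel, against 31.7 and 26.7 in the control channel, and it was well above background in the mutant sample of replicate 2 alone. The overlapping Slc18a2 probe, at base 3453, was not well above background in any sample. No fold is given for Slc18a2.

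The oxidase genes, which are neighbours on the X chromosome, showed no clear difference. Maob, for which 1 probe lies at chrX:16286427-16286486 (mm9), had log2 levels of 10.51 and 10.45 in mutant islets, against 10.97 and 10.52 in control islets. The gap between the groups was 0.003. The ratios were -0.45 and -0.06 (mean -0.26 ± 0.28, SD, n = 2; limma interval from -0.64 to 0.12; limma adjusted p = 0.607), and the mean was 0.01 with median centring on the tested probes and 0.64 with centring on all gene probes. Maoa (chrX:16264785-16264844) had levels of 6.50 and 6.67 in mutant islets, against 6.50 and 6.47 in control islets, and neither control spot was well above background. The ratios were 0.00 and 0.19 (limma adjusted p = 0.857), and the mean was -0.34 with median centring on the tested probes.

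**Figure D3:**
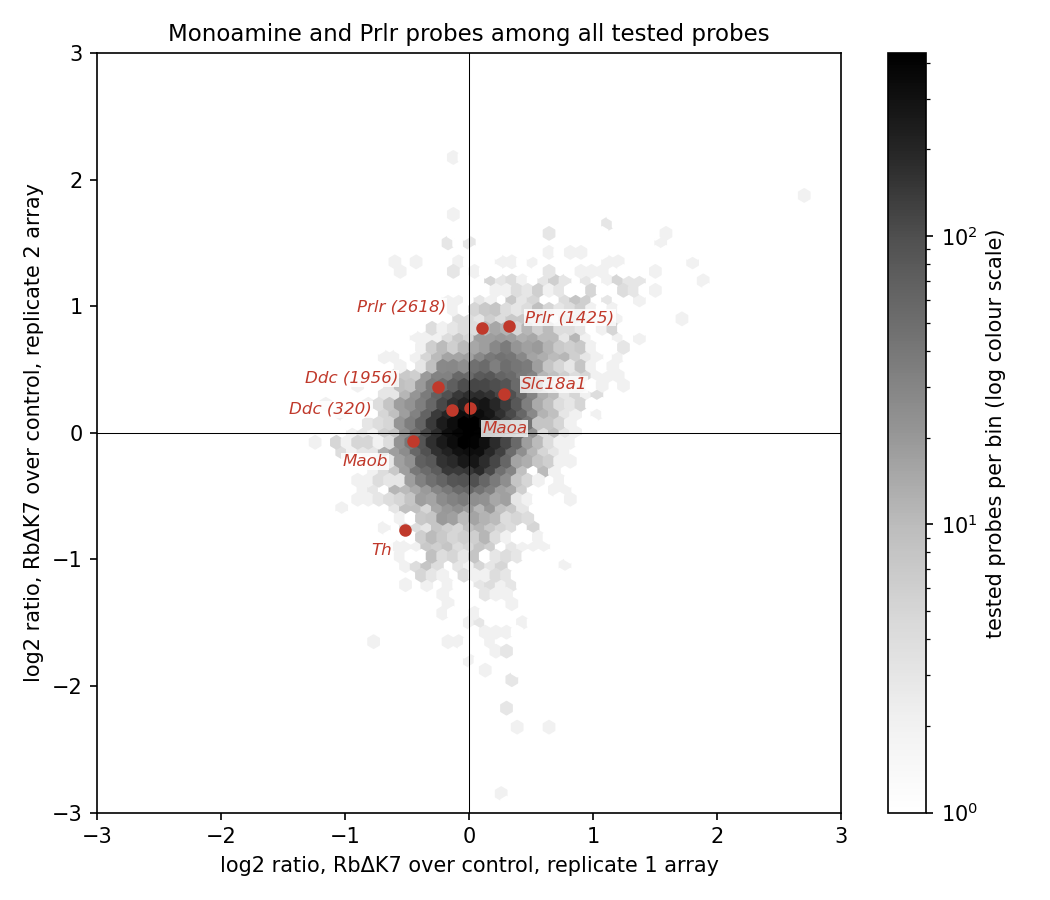
Log2 ratio of mutant (RbΔK7) over control on the replicate 1 array (horizontal) and that of replicate 2 (vertical), with all tested probes as grey bins on a log colour scale and the 8 tested probes of the 9 genes in red. Axes end at 3 in each direction, which leaves out 82 tested probes and none of the red ones. Prlr (0.32 and 0.84, 0.10 and 0.83) lies at the upper edge of the main cloud and Th (-0.52 and -0.77) at its lower left.

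Genes around these in the same pathways mostly did not pass, and 1 rose. All 14 serotonin receptor genes were on the array and 0 were tested, since 13 were not well above background in any sample and Htr6 was so only in 1 mutant sample. Of 14 dopamine and adrenergic receptor genes, 4 were tested and 0 passed. The alpha-2A receptor gene Adra2a, through which noradrenaline restrains insulin release, had ratios of -0.76 and 0.66, and Adrb1, the gene named by rule, had 0.21 and 0.03 with a control channel not well above background. Of 10 tested transporters and other monoamine enzymes, 1 rose, 0 fell and 9 did not pass, with medians of 0.03 and 0.03. The gene that rose was Inmt, an N-methyltransferase of tryptamine and other indoles, with levels of 8.96 and 8.44 in mutant islets, against 6.87 and 6.64 in control islets (ratios 2.08 and 1.80; mean 1.94 ± 0.20, SD, n = 2; limma adjusted p = 0.0263). The control channel was well above background on 1 array. No probe passed with an offset of 0, with processed signals, with series matrix values or with separate channels, so the Inmt call and the calls of marker genes were lost there. Stromal markers were higher too, with medians of 2.57 and 1.66 and 6 of 9 past the test, and their part in the Inmt value was not tested. Sult1a1, a phenol sulfotransferase gene, had ratios of 1.34 and 0.73 (limma adjusted p = 0.113), and the histamine synthesis gene Hdc -0.25 and -0.36.

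Tetrahydrobiopterin is the cofactor of Tph1, Tph2 and Th, and all 9 genes listed for its synthesis and recycling were tested. None passed in either direction, with medians of -0.05 and 0.06. At an unadjusted p under 0.05 with limma the number was 1 of 9, against 11.3% of all tested probes. Gch1, the first enzyme of its synthesis, had ratios of -0.29 and -0.15, and Gchfr, its feedback regulator, -0.16 and -0.34. Of 14 genes for tryptophan uptake and its kynurenine route, 7 were tested and 0 passed, with medians of 0.02 and -0.05. Slc7a8, an amino acid transporter gene, had ratios of -0.44 and -0.14. Of 9 transcription factor genes of serotonergic neurons, 5 were tested and 0 passed, with medians of -0.08 and 0.15. Fev, which beta cells share with serotonergic neurons, had ratios of 0.22 and -0.07, and Gata2, named by the rule, 0.01 and 0.00.

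Of 16 genes listed for prolactin receptor signalling, 14 were tested and 0 passed, with medians of -0.06 and 0.05. At an unadjusted p under 0.05 with limma the number was 2 of 14, against 11.3% of all tested probes. The list includes Ghr, the growth hormone receptor gene. The kinase gene Jak2 had ratios of -0.09 and 0.01, and the STAT5 genes Stat5a and Stat5b had -0.12 and 0.54, and -0.07 and 0.38. The other tested Stat5b probe had a mean of -0.09, against 0.15 for the one given, so the Stat5b probes disagree in sign. Cish, a STAT5 target that feeds back on the receptor, had levels of 10.55 and 9.07 in mutant islets, against 9.28 and 9.29 in control islets, so it was higher in the mutant sample of replicate 1 and lower in that of replicate 2. Socs3, another feedback inhibitor, had ratios of -1.17 and -0.65 (limma adjusted p = 0.126), and its levels, 9.72 and 7.47 in mutant islets and 10.89 and 8.13 in control islets, differed more between replicates than between genotypes. Socs7 had ratios of -0.53 and -0.46 (limma adjusted p = 0.260). Irs1, an adaptor gene shared with the insulin receptor, had 0.13 and 0.38.

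Of 20 genes that change in, or act on, beta cells in pregnancy, a list that includes Tph1, Tph2 and Prlr, 15 were tested and 0 passed. At an unadjusted p under 0.05 with limma the number was 5 of 15, against 11.3% of all tested probes. Their medians were 0.15 and 0.10, with 7 higher and 4 lower on both arrays, where 32.3% and 25.3% of all tested probes were. The matrix gene Matn2 had levels of 9.57 and 9.52 in mutant islets, against 8.84 and 8.49 in control islets (ratios 0.73 and 1.03; limma adjusted p = 0.0934). Igfbp5, an insulin-like growth factor binding protein gene, had ratios of 0.42 and 1.35, and the osteoprotegerin gene Tnfrsf11b 0.46 and 0.47 (limma adjusted p = 0.282). Men1 and Bcl6, which in mouse pregnancy fall and rise under prolactin, had ratios of -0.33 and -0.70 for Men1 and 0.22 and 0.81 for Bcl6, and neither passed. The other tested Men1 probe had a mean of 0.01, so the Men1 probes disagree. The stromal markers above were higher on the same arrays, and which cells carry these messages was not tested.

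**Figure D4:**
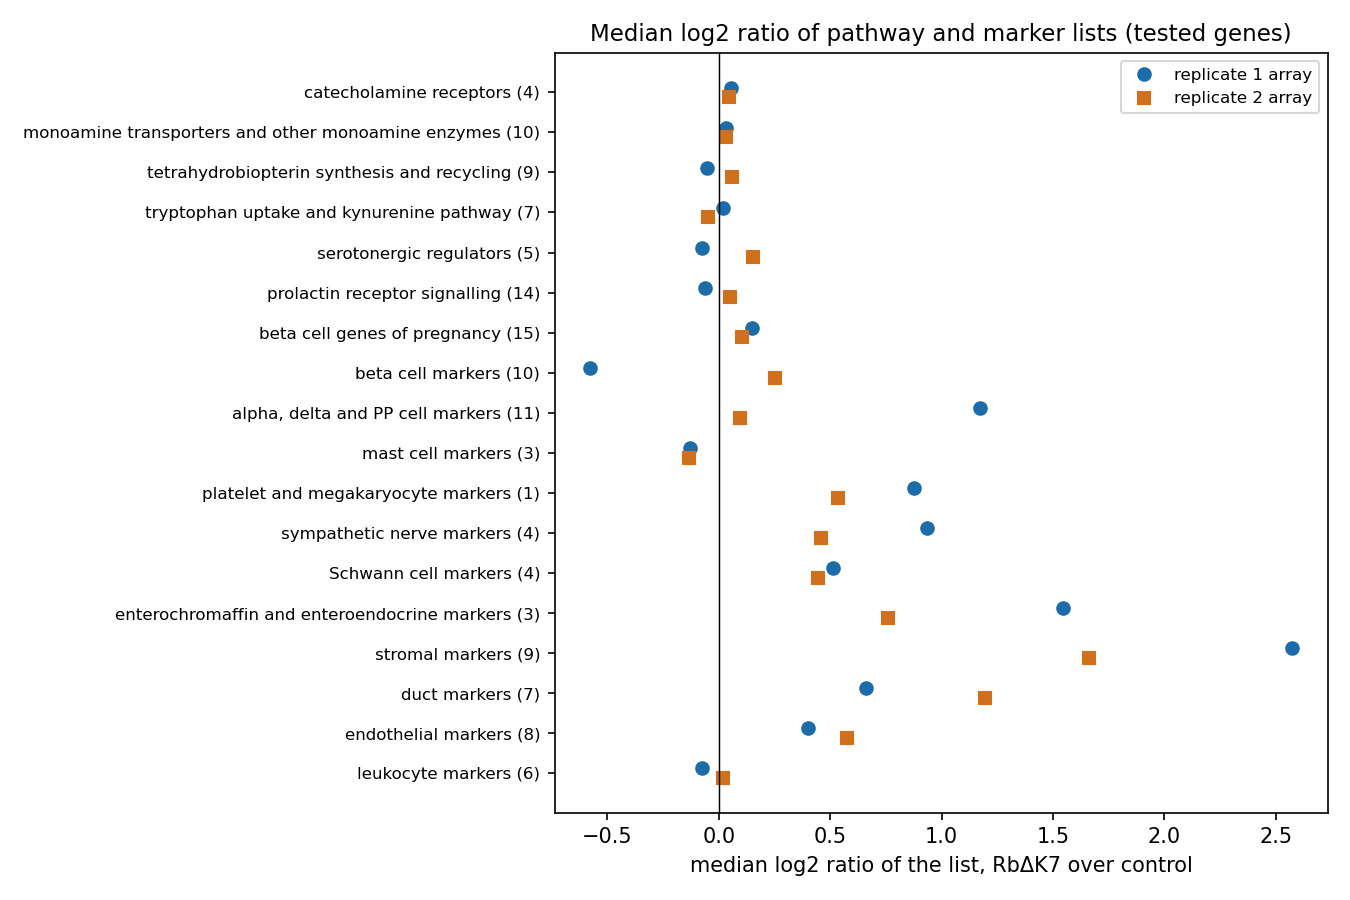
Median log2 ratio of mutant (RbΔK7) over control of each pathway list and cell type marker list on the replicate 1 array (circles) and the replicate 2 array (squares), over the tested genes, whose number is in brackets. Acinar and Reg genes (0.40 and -5.15) are left off so that the other lists can be read. The medians of the pathway lists lie between -0.08 and 0.15, while beta cell markers (-0.58 and 0.25) and stromal markers (2.57 and 1.66) lie further away.

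Other cells that hold monoamines were looked for by their markers. Of 9 mast cell markers, 6 were not well above background in any sample, among them Cpa3, Tpsab1 and Mcpt4. The 3 tested had medians of -0.13 and -0.13, with 0 past the test. Tpsb2 (-0.13 and 0.34) and Kit (0.16 and -0.13) had opposite signs on the 2 arrays, and Hdc alone was lower on both. The summed log2 levels of the 3 were 8.29 and 8.38 in mutant islets, against 8.37 and 8.47 in control islets. Of 5 platelet markers 1 was tested, Pf4, with ratios of 0.88 and 0.53 (limma adjusted p = 0.165). Of 8 markers of enterochromaffin and other enteroendocrine cells, 3 were tested and 1 rose, Tac1, which nerves also express. Tac1 had ratios of 2.76 and 1.97 (limma adjusted p = 0.0299), with its control channel well above background on 1 array. Markers of alpha, delta and PP cells had medians of 1.17 and 0.10 over 11 genes, with 0 past the test. The part of these cells in the values of the 9 genes was not tested.

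**Figure D5:**
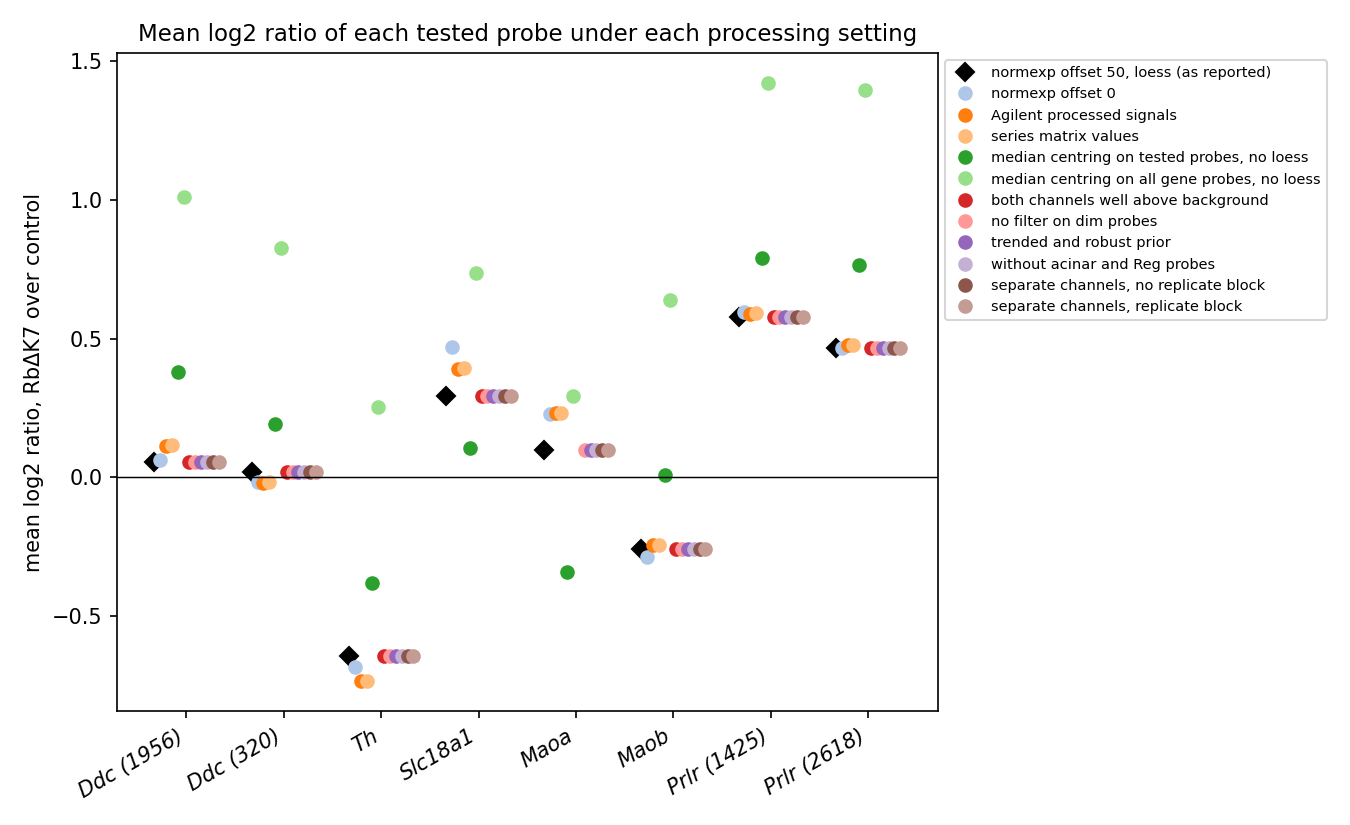
Mean log2 ratio of mutant (RbΔK7) over control of each tested probe under 12 processing settings, with the reported setting as a black diamond. Both Prlr probes, Slc18a1 and the Ddc probe at base 1956 stay above 0 in all of them. Th is below 0 in all but the centring on all gene probes, where it is 0.25, and the largest spread comes from the settings without loess.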

How the data were processed

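Islet RNA of 2 mutant and 2 control samples was read on 2 two-colour Agilent arrays. The submitters' processing notes name Agilent Feature Extraction 10.7.3.1 as the image software. The deposited intensity values are mean spot signals, median local backgrounds and processed signals, per the file headers. The deposited log10 ratios are of red (mutant) over green (control) processed signals, and each p-value covers 1 array, per the file headers. The series matrix holds the same log10 values, with a largest difference of 0.

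In limma 3.58.1 under R 4.3.3, background was corrected with normexp (offset 50), which draws ratios of dim probes towards 0, and each array was normalized by loess (span 0.3). Control spots and 4 outlier gene spots per array were left out, and 0 gene spots were saturated. The mean ratio of each of 22263 probes was set against 0 (lmFit, then eBayes; two-sided), and limma p-values were adjusted by Benjamini and Hochberg over all of them, with a threshold of 0.05. The prior had 4.89 degrees of freedom and an SD of 0.204. Log2 levels per channel are those after Aquantile scaling. For genes outside the 9, the brightest tested probe stood for the gene, and symbols came from GRCm38.p6 RefSeq tables (26762 of 55681 probes by accession, 3819 by symbol, 634 by synonym).

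The members and lists were chosen with earlier results of these data known. Genes of a list were named if they passed, or if they were among the 3 of 1 sign whose smaller ratio was largest, and other genes were named after their values were seen. Some genes that this rule names are not reported here. Depth of arrays cannot be counted.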

Additional observations from a re-analysis of the deposited data

How the results depend on the processing

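Of the 8 tested probes, Slc18a1, both Prlr probes and the Ddc probe at base 1956 kept a positive mean in all 11 other settings. That Ddc probe did so although its ratios had opposite signs on the 2 arrays (-0.25 and 0.36). No probe passed in the settings with loess or the authors' normalization. The mean of the Ddc probe at base 320 turned to -0.0177 with an offset of 0, -0.0190 with Agilent's processed signals and -0.0181 with the series matrix values. With median centring on the tested probes Maoa turned to -0.34 and Maob to 0.00703, and the Prlr probe at base 1425 passed with 0.79. With centring on all gene probes, added after the data were seen, Th turned to 0.25 and Maob to 0.64, while Prlr (1.42 and 1.40) and Ddc (1.01 and 0.83) passed, as 31.8% of tested probes did. The medians of all tested probes were 0.40 and 0.86 there, and the cause was not tested. The number of probes past the threshold was 82. It was 0 with an offset of 0, with processed signals and with series matrix values (2470, 2350 and 2354 at an unadjusted p under 0.05 with limma). It was 787 and 7079 with the centrings in the order above, 355 with no filter, 562 with a trended and robust prior and 185 without acinar and Reg probes. As a check of the pairing, limma on separate channels gave 0 probes both with the replicate block (intraspot correlation 0.241; 2244 at an unadjusted p under 0.05) and without it (1497). There Th had adjusted p = 0.371 with the block and 0.725 without it. Without 1 replicate the values are those of the single arrays, with no test and no count: -0.77 to -0.52 for Th, 0.32 to 0.84 and 0.10 to 0.83 for Prlr, -0.25 to 0.36 and -0.14 to 0.18 for Ddc, 0.28 to 0.31 for Slc18a1, 0.00 to 0.19 for Maoa and -0.45 to -0.06 for Maob. Dim signal limits Tph1, Tph2, Slc18a2 and Maoa. With median centring on the tested probes, the lists of other monoamine enzymes and of pregnancy genes had 2 genes past the threshold each, and those of tetrahydrobiopterin and prolactin receptor signalling had 1 each.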
